A study of Mus musculus with 14 samples.

Results

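The cyclin-dependent kinase inhibitors described here are 6 genes, Cdkn1a, Cdkn1b, Cdkn2a, Cdkn2b, Cdkn2c and Cdkn2d, of the 8251 genes that a probe set with 1 gene symbol stood for on the array. They were chosen by name, with earlier results of these data known. The array carried 8 probe sets for them, 2 for Cdkn1a, 2 for Cdkn1b and 1 for each of the others, and all 8 passed the filter on low signals. RNA came from the corneal stroma of CD-1 mice, either taken directly from the eye or grown as stromal cells from adult mice, and each of the 14 samples was measured on 1 Affymetrix MG_U74Av2 array. Adult stroma of mice aged 7 to 8 weeks had 3 arrays and stroma at postnatal day 10 (P10) had 2. Keratocyte culture (DMEM and 1% platelet-poor horse serum), fibroblast culture (fetal bovine serum at 10%) and myofibroblast culture (the latter serum plus TGF-beta1 at 10 ng/ml) had 3 arrays each. The labels give no genotype and do not say whether arrays of a group came from separate animals or cultures, so p-values measure only the spread between these arrays.

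The inhibitors bind the kinases that drive a cell from growth into DNA replication, or their cyclin partners, and hold the cycle back. The CIP/KIP proteins p21 (Cdkn1a) and p27 (Cdkn1b) act on cyclin E and cyclin A complexes and also help cyclin D complexes to assemble, while the INK4 proteins p16 (Cdkn2a), p15 (Cdkn2b), p18 (Cdkn2c) and p19 (Cdkn2d) bind Cdk4 and Cdk6. Cdkn1a is a classical target of p53, and Cdkn2b is a textbook target of TGF-beta in epithelial cells. Keratocytes of the adult cornea rarely divide, whereas the fibroblasts and myofibroblasts that form from them in wounds or in serum enter the cycle.

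Signals are on a linear scale without unit. Background was read from 19 control probe sets whose transcripts had not been added, with a median of 42.2 and a 95th percentile of 137.7, and a signal under 137.7 is called within background. Array medians lay between 102 and 136. Stroma and cultures differed in more than the inhibitors. The summed signal of 20 markers of corneal epithelium was 26420 to 31459 on the adult arrays and 26780 to 27090 on the P10 arrays, against 1027 to 1194 on the culture arrays, where Itgb4, Col17a1 and Epcam were at the floor of 1 throughout. The 8 retina markers summed to 974 to 3964 on the stroma arrays and to 156 to 226 on the culture arrays, and the 8 lens markers to 5081 to 10663 and 1475 to 2870. The ratio of 3' to 5' signal of Actb, which rises with RNA degradation, was 1.44 to 4.05 on the stroma arrays and 1.06 to 1.20 on the culture arrays. The highest value was that of adult replicate 1, whose Gapdh ratio of 2.12 was also the highest. Every difference between a culture and stroma stands beside these differences, and their part in it was not tested. In such bulk samples fewer cells of a type and less RNA per cell cannot be told apart.

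The culture labels were only partly borne out by markers. Acta2, the smooth muscle actin of myofibroblasts, was at 56.0 ± 14.3 (SD, n = 3) in adult stroma, 3193 ± 142 in keratocyte culture, 2046 ± 1236 in fibroblast culture and 2983 ± 69.1 in myofibroblast culture, and none of the 9 myofibroblast markers differed between any pair of cultures in limma's test, described next. The keratocyte proteoglycan Kera was at 303 ± 112 in adult stroma, 165 ± 150 in keratocyte culture (15.7 in replicate 2), 44.7 ± 41.5 in fibroblast culture and 8.96 ± 4.46 in myofibroblast culture. Over the 9 keratocyte markers measured, 4 rose and 1 fell in keratocyte culture against adult stroma, with a median log2 difference of 0.60 beside 0.12 over all probe sets, and 0 rose and 3 fell in myofibroblast against keratocyte culture, with a median of -1.50 beside -0.13. Keratocyte culture is used here as the name of the low-serum condition.

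Promoter sequences are shown for the 4 inhibitors whose signal changed, from 250 bases before to 50 bases after a RefSeq transcription start, on the build GRCm38.p6 and in the direction of transcription. All 6 genes were found among these windows, with 2 starts for Cdkn1a, Cdkn2a and Cdkn2c. Capitals mark GC boxes (the letters GGGCGG on either strand, the core to which Sp1 binds) and, in Cdkn1a, half-sites of the p53 motif. The windows are Cdkn2b at chr4:89310983-89311282 on the minus strand, Cdkn1a at chr17:29090729-29091028 and chr17:29093519-29093818 on the plus strand, Cdkn1b at chr6:134920151-134920450 on the plus strand and Cdkn2d at chr9:21291160-21291459 on the minus strand.
Cdkn2b: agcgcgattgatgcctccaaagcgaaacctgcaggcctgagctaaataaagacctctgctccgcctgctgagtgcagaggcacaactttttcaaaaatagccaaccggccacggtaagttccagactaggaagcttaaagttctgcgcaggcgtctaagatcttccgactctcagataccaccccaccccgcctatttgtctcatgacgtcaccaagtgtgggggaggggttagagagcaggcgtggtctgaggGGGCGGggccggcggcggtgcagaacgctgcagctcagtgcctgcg
Cdkn1a, first start: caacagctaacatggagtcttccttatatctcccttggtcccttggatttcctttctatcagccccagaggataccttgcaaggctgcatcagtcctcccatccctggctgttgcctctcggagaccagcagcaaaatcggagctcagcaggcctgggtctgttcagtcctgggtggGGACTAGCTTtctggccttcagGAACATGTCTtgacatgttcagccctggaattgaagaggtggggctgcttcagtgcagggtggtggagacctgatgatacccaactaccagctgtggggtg
Cdkn1a, second start: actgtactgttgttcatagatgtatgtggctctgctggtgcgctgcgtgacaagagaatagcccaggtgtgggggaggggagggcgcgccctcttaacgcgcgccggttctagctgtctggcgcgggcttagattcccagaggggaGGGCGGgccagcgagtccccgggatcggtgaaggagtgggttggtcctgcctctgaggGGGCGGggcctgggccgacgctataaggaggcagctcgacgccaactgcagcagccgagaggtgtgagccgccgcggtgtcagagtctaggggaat
Cdkn1b: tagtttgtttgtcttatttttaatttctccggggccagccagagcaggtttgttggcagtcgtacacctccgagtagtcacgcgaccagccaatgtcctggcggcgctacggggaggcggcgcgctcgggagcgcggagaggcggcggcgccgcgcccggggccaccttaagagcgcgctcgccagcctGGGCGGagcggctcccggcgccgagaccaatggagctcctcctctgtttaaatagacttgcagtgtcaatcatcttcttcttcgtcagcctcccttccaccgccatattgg
Cdkn2d: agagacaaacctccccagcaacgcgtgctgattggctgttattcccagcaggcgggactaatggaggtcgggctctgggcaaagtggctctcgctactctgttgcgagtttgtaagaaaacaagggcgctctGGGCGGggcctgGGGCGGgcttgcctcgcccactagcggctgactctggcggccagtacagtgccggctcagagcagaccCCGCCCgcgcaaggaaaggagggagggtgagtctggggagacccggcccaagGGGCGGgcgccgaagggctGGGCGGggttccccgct

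Counted from the start, the Cdkn2b window held a GC box at 5 and the Smad box CAGAC (either strand) at -129 and -4. The first Cdkn1a window held p53 half-sites at -73 and -51 and no GC box, and the second held GC boxes at -104 and -46 and no half-site. A single GC box lay at -61 in Cdkn1b, with the letters CCAAT (either strand) at -161, -35 and 46. Cdkn2d held GC boxes at -118, -106, -38, 15 and 34 and a p53 half-site at -102 that overlaps one of them. The Smad box also lay at -93 in the first and at -135 in the second Cdkn1a window and at -44 and -8 in Cdkn2d, where CCAAT lay at -220. Of the 32851 promoter windows of this length 35.7% hold a GC box, 49.6% the Smad box, 37.4% CCAAT and 8.36% a p53 half-site. A match describes letters only.

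Differences between groups were tested with limma on log2(signal + 16), and an adjusted p below 0.05 over the 10370 probe sets kept was called a change. Fold changes on this scale understate those of low signals. Of the 6 inhibitors 4 changed in at least 1 of 7 comparisons: Cdkn1a was highest in keratocyte culture, Cdkn2b was above background on all arrays of myofibroblast culture only, Cdkn1b was lower in the cultures than in adult stroma, and Cdkn2d was higher in them. Cdkn2a and Cdkn2c passed the test in none, by limma's adjusted p. The share of all probe sets called in at least 1 of the 7 was not counted. Each comparison of a culture with adult stroma alone called 30.8% to 33.0% of them. Against adult stroma, the calls of Cdkn1b and Cdkn2d in keratocyte culture were lost under some alternatives. The Cdkn1b probe set 161010_r_at passed against adult stroma in myofibroblast culture only.

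Between adult and P10 stroma, a comparison over development, none of the 8 probe sets passed, with 3.71% of all probe sets called, and 2 had an unadjusted p below 0.05. Keratocyte culture against adult stroma gave 5 of 8, with 31.1% of all probe sets called. For fibroblast culture against adult stroma it was 3 of 8, with 30.8% called, and for myofibroblast culture against adult stroma 4 of 8, with 33.0% called. These comparisons share the adult arrays. Among the cultures, fibroblast against keratocyte gave 1 of 8 (1.37% of all probe sets called), myofibroblast against fibroblast 1 of 8 (1.07%, or 111 probe sets, and 253 with the replicate number as a block) and myofibroblast against keratocyte 2 of 8 (5.98%). The median log2 difference of the 8 probe sets was 0.08 in keratocyte culture against adult stroma, beside 0.12 over all probe sets, and -0.44 in myofibroblast against keratocyte culture, beside -0.13. Another scaling moved the median over all probe sets in these comparisons to -0.05 and to 0.03 or 0.04, and from -0.12 to 0.03 or 0.05 in adult against P10 stroma. The plot of differences in all comparisons shows where the calls fall.

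**Figure D1:**
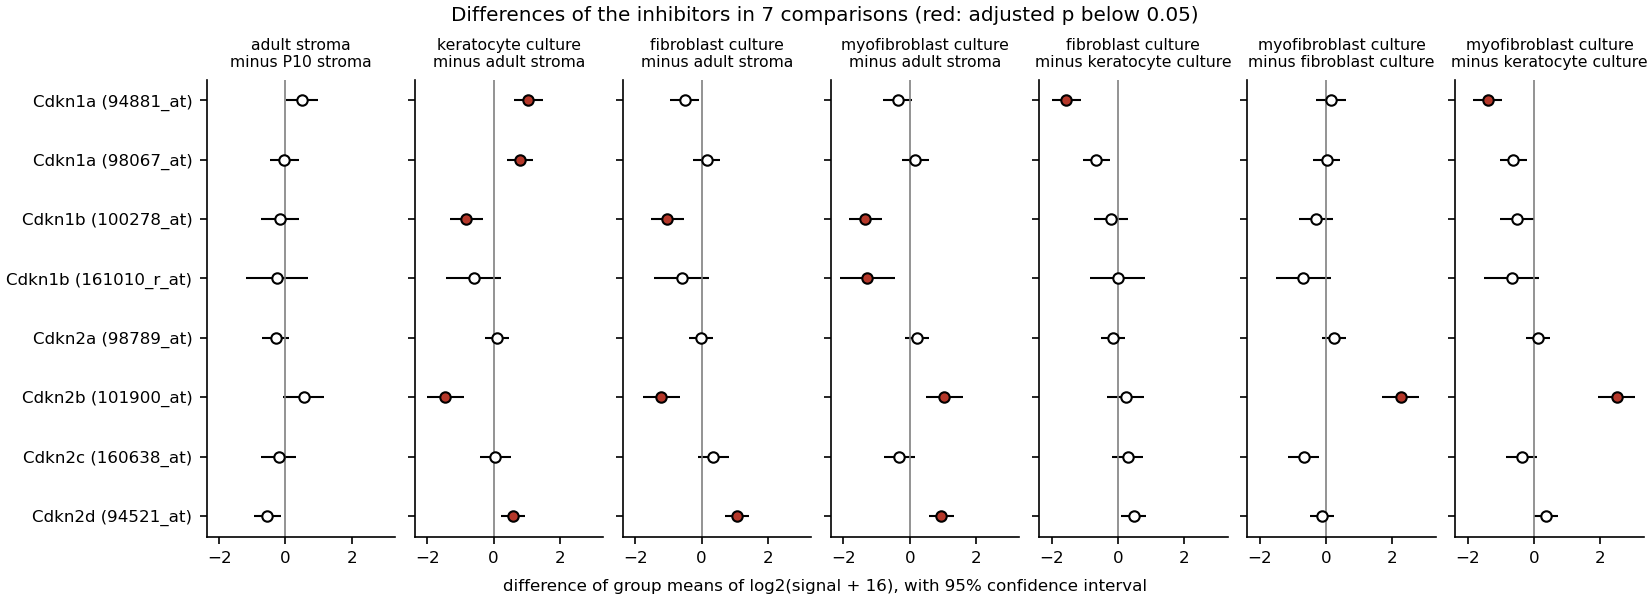
Differences of group means of log2(signal + 16) for the 8 probe sets of the inhibitors (rows) in 7 comparisons (panels), with 95% confidence intervals; red points have an adjusted p below 0.05. Cdkn1a falls left of 0 in both comparisons of other cultures with keratocyte culture, Cdkn2b lies right of 0 in both comparisons of myofibroblast with other cultures, and Cdkn2a and Cdkn2c have no red point.

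Cdkn1a encodes p21, the inhibitor through which p53 halts the cycle, on chr17:29090979-29100722 (GRCm38.p6). Probe set 94881_at gave 253 and 233 in P10 stroma, 370, 441 and 259 in adult stroma, 802, 676 and 730.4 in keratocyte culture, 301, 216 and 213 in fibroblast culture and 258, 321 and 232 in myofibroblast culture. Every keratocyte culture array was above every other array. The mean of 736 ± 63.3 (SD, n = 3) in keratocyte culture was 2.06 times the 357 ± 92.0 of adult stroma, a log2 difference of 1.04 ± 0.20 (SE; limma's adjusted p = 0.00134). It was 3.03 times the 243 ± 49.7 of fibroblast culture (log2 difference -1.55 ± 0.20, adjusted p = 0.00195) and 2.72 times the 271 ± 45.6 of myofibroblast culture (-1.40 ± 0.20, adjusted p = 0.000796). All 3 of these calls held under every alternative run, with adjusted p up to 0.0288.

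The other Cdkn1a probe set, 98067_at, rose as well in keratocyte culture but set it less far apart. It gave 174 and 201 in P10 stroma, 132, 206 and 225 in adult stroma, 331, 328 and 327 in keratocyte culture, 178, 227 and 210.2 in fibroblast culture and 193, 239 and 192 in myofibroblast culture. Keratocyte culture again lay above all other arrays, with a log2 difference of 0.79 ± 0.19 (SE) from adult stroma (limma's adjusted p = 0.00486). Its differences from fibroblast culture (-0.64, 95% confidence interval -1.05 to -0.24, adjusted p = 0.147) and from myofibroblast culture (-0.63, -1.03 to -0.23, adjusted p = 0.0667) did not pass, although the arrays did not overlap. The last passed with only these 2 groups in the fit, at an adjusted p of 0.0435, and ran from there to 0.284 over the alternatives. The probe sets also disagreed on age, with log2 differences of adult against P10 stroma of 0.49 at 94881_at (adjusted p = 0.333) and -0.03 at 98067_at (adjusted p = 0.982).

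After keratocyte culture, adult stroma, myofibroblast culture, fibroblast culture and P10 stroma followed in the mean of 94881_at, and each neighbouring pair in this order overlapped. Fibroblast culture lay below adult stroma by a log2 difference of -0.51, with an adjusted p of 0.0753. That difference passed without adult replicate 3 (adjusted p = 0.0145), without fibroblast replicate 1 (0.0405), after quantile normalization (0.0472) and with the replicate number as a block (0.0490), within a range of 0.0145 to 0.220 over the alternatives. For myofibroblast culture against adult stroma (-0.36, adjusted p = 0.203) leaving out adult replicate 3 gave 0.0420.

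Macrophage and pigment cell markers were higher in keratocyte culture than in adult stroma, as Cdkn1a was. The 12 macrophage markers summed to 3339 to 4335 on the keratocyte culture arrays, 836 to 1088 in adult stroma, 1222 to 2326 in fibroblast culture and 908 to 1305 in myofibroblast culture, and 8 of the 12 passed the test as higher in keratocyte culture than in adult stroma. The 4 pigment cell markers summed to 1862 to 2221 in keratocyte culture, 612 to 750 in adult stroma, 375 to 605 in fibroblast culture and 429 to 557 in myofibroblast culture, and 4 of 4 passed in the same comparison. Over all probe sets 31.1% were called in that comparison. Against keratocyte culture 5 of 12 macrophage and 4 of 4 pigment cell markers fell in fibroblast culture, with 1.37% of all probe sets called. Against it 8 of 12 and 4 of 4 fell in myofibroblast culture, with 5.98% called. Cdkn1a fell in both comparisons at 94881_at and passed in neither at 98067_at. In fibroblast culture against adult stroma 7 of 12 macrophage markers rose and 1 fell, with 30.8% of all probe sets called. None of the 4 pigment cell markers passed there. Cdkn1a had log2 differences in that comparison of -0.51 (94881_at) and 0.15 (98067_at). None of the macrophage and pigment cell markers was at the floor on all arrays of a group. Their part in the Cdkn1a difference was not tested. In P10 stroma the pigment markers summed to 1631 and 4954, while Cdkn1a there lay below adult stroma without overlap at 94881_at and overlapped it at 98067_at.

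**Figure D2:**
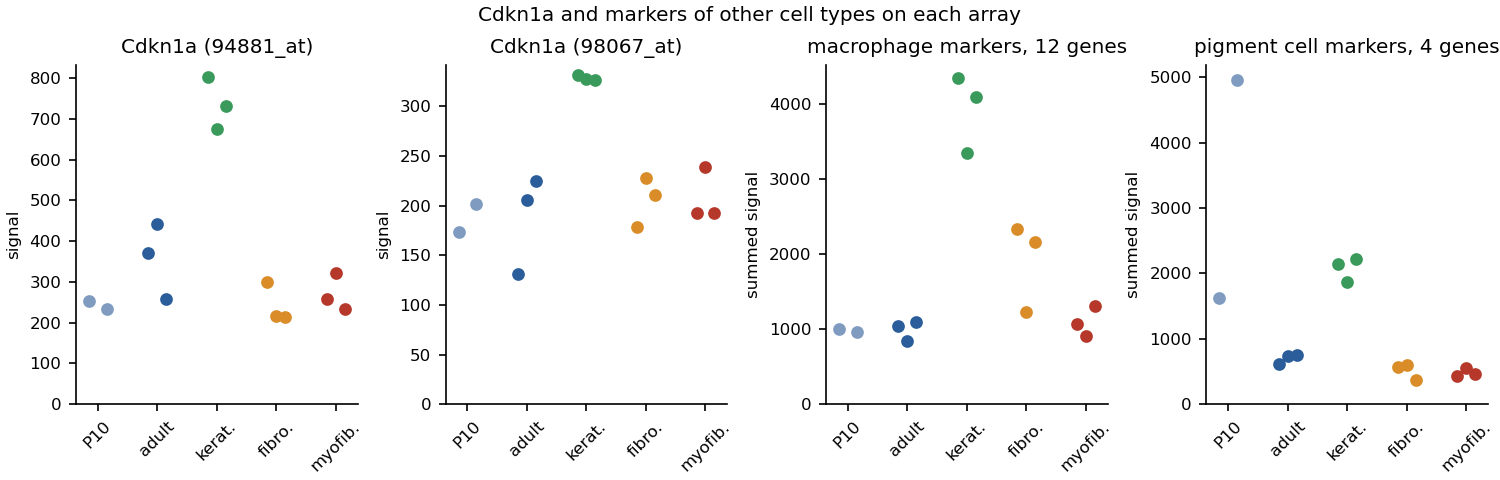
Signal of the 2 Cdkn1a probe sets and summed signal of 12 macrophage and 4 pigment cell marker genes (linear axes from 0), one point per array, by group: P10 and adult stroma, keratocyte (kerat.), fibroblast (fibro.) and myofibroblast (myofib.) culture. The 3 keratocyte culture arrays are the highest in both Cdkn1a panels and in the macrophage panel (3339 to 4335), and in the pigment panel 1 of the P10 arrays is higher, at 4954.

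Cdkn1b encodes p27, which keeps resting cells out of the cycle and is controlled largely by removal of the protein, on chr6:134920401-134925525. Probe set 100278_at gave 652 and 613 in P10 stroma, 556, 396 and 818 in adult stroma, 273, 394 and 284 in keratocyte culture, 254, 227 and 332 in fibroblast culture and 201, 207 and 234 in myofibroblast culture. Every culture array lay below every stroma array, by a narrow margin in the case of adult replicate 2 at 396 and keratocyte replicate 2 at 394. From 589.9 ± 213 (SD, n = 3) in adult stroma the mean fell to 317 ± 67.0 in keratocyte culture, 271 ± 54.7 in fibroblast culture and 214 ± 17.5 in myofibroblast culture.

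The log2 differences of 100278_at from adult stroma were -0.82 ± 0.24 (SE; limma's adjusted p = 0.0158), -1.03 ± 0.24 (0.00394) and -1.34 ± 0.24 (0.000519) in that order. The call in keratocyte culture was lost without adult replicate 3 (adjusted p = 0.0680), keratocyte replicate 1 (0.0669) or keratocyte replicate 3 (0.0648), with 0.00261 as the lowest value over the alternatives. The calls in the other 2 cultures held throughout. No difference among the cultures passed, the widest being myofibroblast against keratocyte culture at -0.52 (95% confidence interval -1.02 to -0.01, adjusted p = 0.240), with arrays that did not overlap. Adult and P10 stroma overlapped (-0.16, adjusted p = 0.865). Of the 19 corneal epithelium markers tested 19 fell in keratocyte culture and 18 in each of the other cultures against the same adult arrays.

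The other Cdkn1b probe set, 161010_r_at, has the suffix of sets for which some rules of probe selection were dropped, and it was lower and more scattered. It gave 258 and 265 in P10 stroma, 302, 219 and 155 in adult stroma, 212, 68.5 and 174 in keratocyte culture, 119, 86.1 and 250 in fibroblast culture and 80.7, 58.3 and 108 in myofibroblast culture. The last group lay within background on all 3 arrays and below every stroma array, and it passed against adult stroma (limma's adjusted p = 0.0209). That call was lost without adult replicate 1 (0.0919), myofibroblast replicate 1 (0.0509) or myofibroblast replicate 2 (0.0744), in a range of 0.00579 to 0.0919 over the alternatives. Keratocyte and fibroblast culture overlapped adult stroma, each with a log2 difference of -0.60 (adjusted p = 0.268 and 0.267).

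Cdkn2b encodes p15, an inhibitor of Cdk4 and Cdk6, on chr4:89306289-89311032, next to Cdkn2a. Its probe set 101900_at gave 286, 164 and 263 in myofibroblast culture, 27.2, 40.4 and 41.1 in fibroblast culture, 28.9, 29.6 and 25.8 in keratocyte culture, 165, 100.5 and 67.2 in adult stroma and 66.0 and 66.7 in P10 stroma. The 3 myofibroblast arrays were above the 137.7 of background, as was 1 of 3 adult arrays, and no array of the other groups was. The mean of myofibroblast culture, 238 ± 65.2 (SD, n = 3), was the only group mean above background.

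Against fibroblast culture, which differed in its label by TGF-beta1 alone, the mean in myofibroblast culture was higher (238 against 36.2, limma's adjusted p = 0.000460). That mean was 1.72 times the 95th percentile of background, and the lowest myofibroblast array was 1.19 times it. The highest single background value, 256.8, was above the mean, so no lower bound on the fold is given. The mean of myofibroblast culture was also higher than that of keratocyte culture at 28.1 ± 2.02 (limma's adjusted p = 7.66e-05) and of adult stroma at 111 ± 49.5 (adjusted p = 0.00688). All 3 calls held under every alternative run, the first with adjusted p up to 0.0165. The arrays of myofibroblast culture and adult stroma overlapped only in that myofibroblast replicate 2 at 164 was below adult replicate 1 at 165, the adult array with the high 3' to 5' ratios. Keratocyte and fibroblast culture lay below adult stroma (adjusted p = 0.000652 and 0.00246), but all 3 means are within background and no fold is given. Adult and P10 stroma did not overlap (adjusted p = 0.416), both within background.

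**Figure D3:**
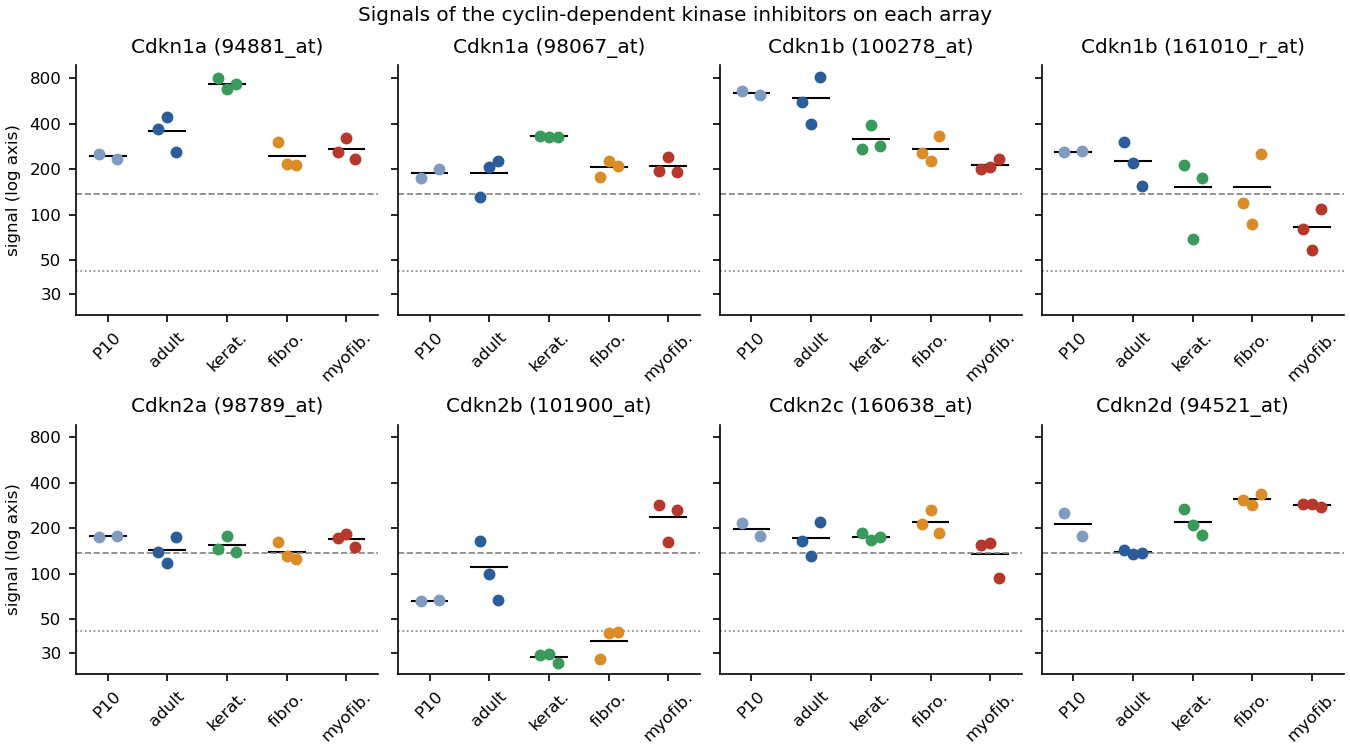
Signal of each of the 8 probe sets of the inhibitors on every array (log axis), by group: P10 and adult stroma, keratocyte (kerat.), fibroblast (fibro.) and myofibroblast (myofib.) culture. Bars are group means; the dotted and dashed lines are the median (42.2) and the 95th percentile (137.7) of the 19 background probe sets. Cdkn1a peaks in keratocyte culture, Cdkn2b exceeds the dashed line on all arrays of myofibroblast culture only, and Cdkn2a stays close to that line in all 5 groups.

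Cdkn2d encodes p19, an INK4 inhibitor whose level rises and falls with the cycle, on chr9:21288459-21291421. Probe set 94521_at gave 253 and 177 in P10 stroma, 145, 136 and 138 in adult stroma, 270.3, 211 and 182 in keratocyte culture, 308, 283 and 339 in fibroblast culture and 289, 289 and 278 in myofibroblast culture. The adult arrays were the lowest of all, with no overlap with any other group. From 140 ± 4.46 (SD, n = 3) the mean rose to 310.3 ± 28.1 in fibroblast culture, a log2 difference of 1.07 ± 0.17 (SE; limma's adjusted p = 0.000262), and to 285 ± 6.49 in myofibroblast culture (0.95 ± 0.17, adjusted p = 0.000617). Both calls held under every alternative.

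Keratocyte culture, at 221 ± 45.3, stood between adult stroma and the other cultures in Cdkn2d. Its difference from adult stroma of 0.59 ± 0.17 (SE; limma's adjusted p = 0.0171) was lost after quantile normalization (0.0824), after centring on the median (0.0830) and without keratocyte replicate 1 (0.0959), in a range of 0.0145 to 0.0959 over the alternatives. Fibroblast culture lay above keratocyte culture without overlap (0.48, 95% confidence interval 0.11 to 0.84), which did not pass at an adjusted p of 0.337. P10 stroma lay above adult stroma without overlap (-0.55 for adult minus P10, -0.96 to -0.14), which did not pass either, at 0.157. The fall of the adult arrays below P10 and the rise in culture share the same 3 adult arrays, whose mean of 140 is just above background.

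Cdkn2a encodes p16 and, from another start, p19Arf, which protects p53 from Mdm2, on chr4:89274473-89294619, and the annotation used here does not say which transcript the probe set reads. Probe set 98789_at gave 176 and 179 in P10 stroma, 139, 118 and 174 in adult stroma, 147, 179 and 140 in keratocyte culture, 163, 131 and 125 in fibroblast culture and 174, 183 and 150 in myofibroblast culture. Of the 7 pairs of groups compared, adult and P10 stroma alone did not overlap, and the widest 95% confidence bounds of its 7 log2 differences were -0.70 and 0.61. Signals ran from 118 to 183, close to the background's 95th percentile. They were above it on 2 of 2 P10, 2 of 3 adult, 3 of 3 keratocyte, 1 of 3 fibroblast and 3 of 3 myofibroblast arrays. All lay under the highest single background value, 256.8, so whether a low level was present is not settled.

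Cdkn2c encodes p18, an INK4 inhibitor of cycling and differentiating cells, on chr4:109660876-109666756. Probe set 160638_at gave 218 and 178 in P10 stroma, 164, 131 and 221 in adult stroma, 185, 168 and 174 in keratocyte culture, 214, 266 and 186 in fibroblast culture and 155, 159 and 93.4 in myofibroblast culture. The cultures did not overlap one another, with keratocyte culture between 222 ± 40.4 (SD, n = 3) in fibroblast and 136 ± 36.7 in myofibroblast culture, where the mean is just within background. The difference between the last pair had the lowest adjusted p over the cultures, 0.275 in limma, and did not pass.

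Lists of genes around the inhibitors were counted in the same way, with 1 probe set per gene. The p53 pathway list had 15 of its 23 genes among the probe sets kept, and p53 itself was not analysed here. In keratocyte culture against adult stroma 6 of 15 rose and 3 fell, with a median log2 difference of 0.16 beside 0.12 over all probe sets and 31.1% of these called. Mdm2, the ligase that removes p53, rose from 165 ± 18.6 to 464 ± 79.1 (SD, n = 3 each; log2 difference 1.40 ± 0.28 SE, limma's adjusted p = 0.00172). Zmat3, a p53 target that binds RNA, rose from 167 ± 29.1 to 463 ± 70.9 (1.39 ± 0.21, adjusted p = 0.000154). The other 4 that rose were Apaf1, Ccng1, Gadd45a and Gadd45b. Perp, at 3750 ± 137 in adult stroma and 187 ± 40.2 in keratocyte culture, and Sfn, at 2088 ± 560 and 7.21 ± 2.08, fell with Sesn1 (adjusted p of Perp 1.54e-06 and of Sfn 1.77e-11), and Perp and Sfn are abundant in epithelium. Sfn and Sesn1 (116 ± 32.6) were within background in keratocyte culture. Without keratocyte replicate 1 only 3 of the list rose.

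Between cultures 1, 2 and 4 of the 15 genes of the p53 list passed in the 3 comparisons. In fibroblast against keratocyte culture 0 of 15 rose and 1 fell, Perp, with 1.37% of all probe sets called, and Perp was lost without any 1 of the 3 keratocyte arrays. Mdm2 had a log2 difference of -0.73 (limma's adjusted p = 0.430) and Zmat3 of -0.67 (0.199) in that comparison. Against adult stroma Zmat3 rose in fibroblast (0.72, limma's adjusted p = 0.0179) and myofibroblast culture (0.83, 0.00710). Mdm2 rose in myofibroblast culture (0.87, 0.0303) and did not pass in fibroblast culture (0.67, 0.0898). Cdkn1a passed in neither of these, at -0.51 and -0.36 (94881_at) and 0.15 and 0.17 (98067_at). In myofibroblast against fibroblast culture 2 rose and 0 fell, with 1.07% of all probe sets called. Plk2, a kinase induced by p53 and by growth factors, rose from 703 ± 69.0 to 1501 ± 189 (1.08 ± 0.18 SE, adjusted p = 0.00703) and Ddit4, an inhibitor of mTOR signalling, from 223 ± 38.0 to 467 ± 94.4 (1.01 ± 0.18, adjusted p = 0.0114). Without fibroblast replicate 1 or myofibroblast replicate 2 only 1 of these passed, and with only the 2 groups in the fit neither did. In myofibroblast against keratocyte culture 2 rose (Plk2 and Ddit4) and 2 fell (Perp and Sesn1, both within background in myofibroblast culture), with 5.98% of all probe sets called. Sesn1 was within background in keratocyte culture as well, at 116. The limma adjusted p of Plk2 was 0.00133, of Ddit4 0.0251, of Perp 0.000568 and of Sesn1 0.0118. Leaving out any 1 of the 3 keratocyte arrays or myofibroblast replicate 1 or 2 left 1 that rose, and without keratocyte replicate 1 or 3 or myofibroblast replicate 2 only 1 fell. Against adult stroma 7 of 15 rose and 4 fell in myofibroblast culture, with 33.0% of all probe sets called, and 4 and 4 in fibroblast culture, with 30.8% called, where 2 rose without adult replicate 2 or 3 and 1 rose without fibroblast replicate 3 or with only the 2 groups in the fit.

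Among the kinases and cyclins that the inhibitors act on, 4 of 13 genes measured rose and 1 fell in keratocyte culture against adult stroma, 6 and 1 in fibroblast culture and 3 and 1 in myofibroblast culture. Over all probe sets 31.1%, 30.8% and 33.0% were called in these comparisons, so the first and the last count are near the background, and the list medians were 0.17, 0.48 and 0.36 beside 0.12, 0.04 and -0.01. With only the 2 groups in the fit 3 rose in fibroblast culture. The 4 were Ccnd3, Cdc25a, Cdk1 and Cdk4. Between myofibroblast and fibroblast culture 0 of 13 passed, and 1 fell with the replicate number as a block. In fibroblast against keratocyte culture 1 rose, the B cyclin Ccnb2, from 154 ± 12.9 (SD, n = 3) to 439 ± 213 (limma's adjusted p = 0.0399), and 0 rose without fibroblast replicate 2 or 3 or any 1 of the keratocyte arrays. In myofibroblast against keratocyte culture 1 rose, Cdc25a, the phosphatase that activates Cdk2, from 689 ± 41.2 to 1536 ± 242 (adjusted p = 0.0177), and 0 rose without keratocyte replicate 1 or 3 or myofibroblast replicate 2 or 3. Cdc25a was also the 1 gene of the list that changed between P10 stroma (793 ± 383, n = 2) and adult stroma (83.8 ± 18, within background, adjusted p = 0.000117). Cdk1, the kinase of mitosis, rose from 177 ± 20.6 (SD, n = 3) in adult stroma to 380.2 ± 31.0, 649 ± 158 and 462 ± 161 in keratocyte, fibroblast and myofibroblast culture (limma's adjusted p = 0.00671, 0.000115 and 0.00185). Ccnd3, a D cyclin, rose from 146 ± 14.7 to 423 ± 20.5, 414 ± 70.1 and 413 ± 76.1. Ccnd1, the other D cyclin called, fell from 1232 ± 131 to 499 ± 48.5, 435 ± 303 and 237 ± 122 (adjusted p = 0.0245, 0.00503 and 0.000299). The first of these 3 falls was lost without adult replicate 2 or 3 or any 1 of the keratocyte arrays.

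Of 23 genes of replication and mitosis 8 rose and 2 fell in keratocyte culture against adult stroma, 11 and 1 in fibroblast culture, and 9 and 1 in myofibroblast culture, with medians of 0.78, 0.81 and 0.38 beside 0.12, 0.04 and -0.01 over all probe sets, of which 31.1%, 30.8% and 33.0% were called. The 8 became 5 without adult replicate 1, 4 without keratocyte replicate 1 or 3, and 15 with only the 2 groups in the fit. Those that fell were Mcm6 in each culture and Cenpa in keratocyte culture, and 0 fell in any of the 3 comparisons without adult replicate 1. Birc5 (survivin), a subunit of the chromosomal passenger complex of mitosis, was within background in adult stroma at 110.2 ± 21.6 (SD, n = 3). It rose to 360 ± 36.0 in fibroblast culture (log2 difference 1.58 ± 0.20 SE, limma's adjusted p = 3.51e-05). In myofibroblast culture it rose by 1.07 ± 0.20 on the log2 scale (adjusted p = 0.000976). Among the cultures 1 of 23 passed in any comparison, Aurka in myofibroblast against keratocyte culture (72.0 ± 9.36 to 115 ± 5.07, both within background), and it was lost without any 1 of the 6 arrays compared. In fibroblast against keratocyte culture 2 rose after centring on the median. Of the 7 pocket protein and E2F genes measured 3 rose in keratocyte culture against adult stroma (Tfdp1, Rb1 and E2f5) and 1 in each other culture (Tfdp1), beside the same shares over all probe sets. E2f5 was within background in both groups, at 43.8 in adult stroma and 69.6 in keratocyte culture. The 3 became 1 under quantile normalization or centring on the median or without adult replicate 2 or 3 or keratocyte replicate 3, and 0 without keratocyte replicate 1. Tfdp1 was lost in fibroblast culture without adult replicate 3 or fibroblast replicate 1, and in myofibroblast culture 0 rose without adult replicate 1 or myofibroblast replicate 1 or 2.

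**Figure D4:**
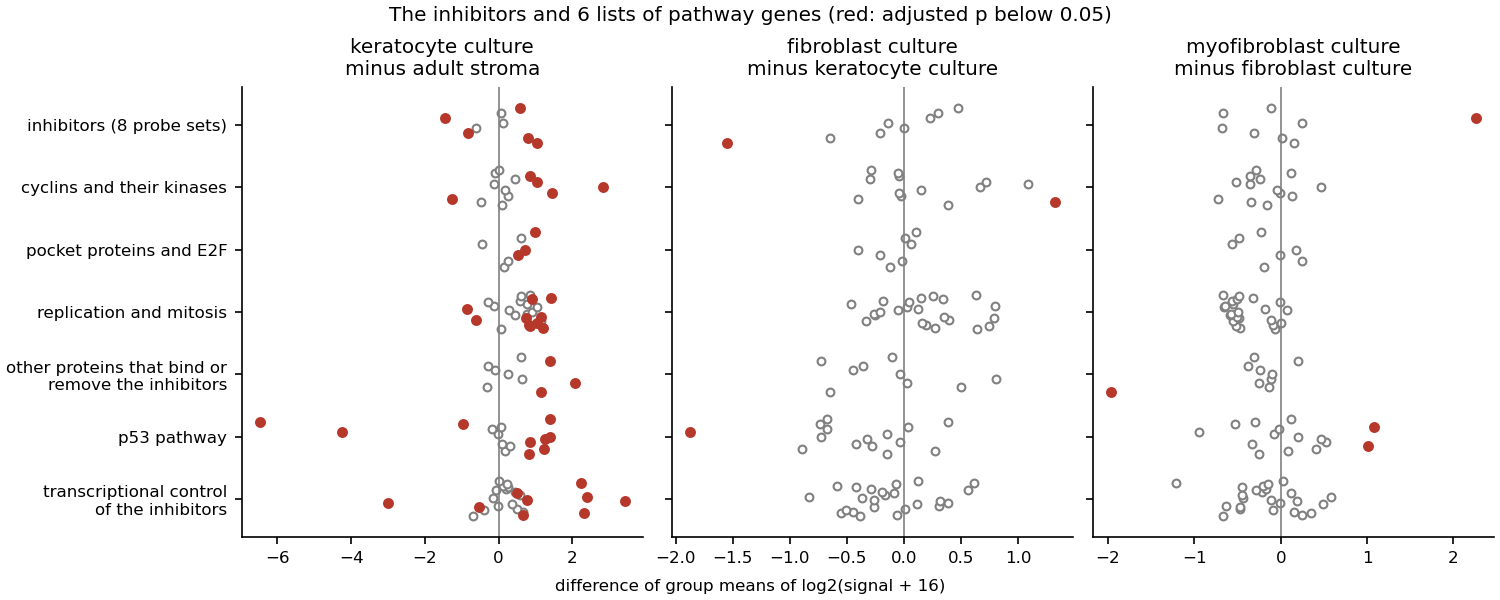
Differences of group means of log2(signal + 16) for the 8 probe sets of the inhibitors and for the genes of 6 lists (rows), in 3 comparisons (panels); each point is 1 gene or probe set, and red points have an adjusted p below 0.05. Many list genes are red in keratocyte culture against adult stroma, where 31.1% of all probe sets were called, and few are red between cultures.

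Proteins that bind or remove the inhibitors included Cks1b, the cofactor with which the Skp2 ligase marks p27 for removal. It gave 107, 109 and 55.1 in adult stroma, within background, and rose to 421 ± 58.7 (SD, n = 3) in keratocyte, 448 ± 164 in fibroblast and 370.2 ± 129 in myofibroblast culture (limma's adjusted p = 0.000118, 1.0e-04 and 0.000283). Cks1b was high in the cultures where the Cdkn1b signal was low. The array reads RNA and not p27 protein, and a link between these signals was not tested. Cks2, a relative of Cks1b, was within background in adult stroma at 121 ± 38.5. It rose in fibroblast culture (to 354 ± 77.0, limma's adjusted p = 0.00215) and in myofibroblast culture (to 333 ± 109, adjusted p = 0.00363). In this list 3 of 9 rose and 0 fell in keratocyte culture, 2 and 0 in fibroblast culture and 3 and 2 in myofibroblast culture against adult stroma. With 31.1%, 30.8% and 33.0% of all probe sets called, the first count is near the background and the second below it. The list counts Mdm2 again. It also counts Cdkn1c, itself an inhibitor, among the 3 that rose in keratocyte and the 2 that fell in myofibroblast culture. Skp2 was not analysed here.

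Of 24 regulators of the inhibitors' transcription 5 rose and 4 fell in fibroblast culture and 7 rose and 4 fell in myofibroblast culture against adult stroma, the 4 that fell being Bmi1, Ets2, Foxo3 and Klf4 in both. Over all probe sets 30.8% and 33.0% were called, and the list medians were 0.28 and 0.04 beside 0.04 and -0.01. Keratocyte culture, with 31.1% called, gave 7 and 2, and 4 and 1 without keratocyte replicate 3. The widest change of the list in each culture against adult stroma was that of Klf6, a zinc finger factor that activates Cdkn1a, from 30.7 ± 14.9 (SD, n = 3) in adult stroma, within background, to 468 ± 39.9, 595 ± 120 and 674 ± 87.5 in keratocyte, fibroblast and myofibroblast culture (limma's adjusted p = 8.47e-08, 2.94e-08 and 1.72e-08). Egr1, an early response factor to serum and growth factors, rose from 149 ± 35.1 to 793 ± 108, 578 ± 252 and 688 ± 88.1 (adjusted p = 4.64e-05, 0.000506 and 9.69e-05). Klf4, an epithelial factor that activates Cdkn1a, fell from 2166 ± 207 (SD, n = 3) in adult stroma to 262 ± 64.7, 372 ± 168 and 356 ± 141 in keratocyte, fibroblast and myofibroblast culture (limma's adjusted p = 1.2e-05, 4.42e-05 and 3.84e-05). Myc, which represses Cdkn1a and Cdkn2b, was within background in adult stroma at 28.1 ± 15.5 and rose to 208 ± 30.3 in keratocyte culture (adjusted p = 6.75e-05) and 177 ± 59.9 in myofibroblast culture (adjusted p = 0.000161). In myofibroblast against keratocyte culture 1 of 24 fell, Foxo3, an activator of Cdkn1b (219 ± 23.3 to 126 ± 14.9, the latter within background, limma's adjusted p = 0.0420). In that comparison 0 fell without keratocyte replicate 1 or 3 or any 1 of the myofibroblast arrays. Between P10 and adult stroma 0 rose and 2 fell, Klf6 and Cbx7, with 3.71% of all probe sets called. In myofibroblast against fibroblast culture, where Cdkn2b rose, 0 of 24 passed by limma's adjusted p, and 1 fell with the replicate number as a block, after quantile normalization or centring, or without fibroblast replicate 2.

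By distance between 5 group means, each probe set centred on its own mean, the genes most like Cdkn1a (94881_at) were Mt1, at a root mean square distance of 0.19 on the log2 scale, Bcl6 at 0.24 and Fbln1 at 0.24. Mt1 had means of 734 in adult stroma, 1741 in keratocyte culture, 485 in fibroblast culture and 575 in myofibroblast culture. Cdkn1b (100278_at) was closest to Tmem205 (0.04), Syngr4 (0.05) and Ptbp3 (0.06), and its other probe set to Fryl (0.03), Lmo4 (0.08) and Tap1 (0.08). Nearest to Cdkn2d were Pnliprp2 (0.05), Ahsg (0.06) and Clec11a (0.06). For Cdkn2b the nearest were Tmeff1 (0.40), Ank (0.42) and Rasl11b (0.48). Its group means spanned 2.49 on the log2 scale, against 1.07 to 1.55 for the others, and the distance was not scaled to the span. Tmeff1 was within background in the mean of every group, at 117 in myofibroblast culture. The mean of Ank was 1140 in myofibroblast and 430 in fibroblast culture. Over 5 means such likeness is a description.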

How the data were processed

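RNA was isolated with TRIzol, 5 µg of total RNA per array, and the deposited values are probe set intensities that the authors made with Microarray Suite 5.0, scaled to a target of 150 per the labels. The submitters' processing notes name MAS5. Since the trimmed mean (2%) of a deposited column lay between 164.3 and 224.7, how the values were scaled is not settled. The lowest value is 1, and no detection calls were given. Precision is limited by the number of arrays.

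Of 12488 probe sets, 66 controls were left out and 10370 of the remaining 12422 were kept, those with a mean of 50 or more in at least 1 of 5 groups. The probe annotation gave 10833 of the 12422 probe sets 1 symbol, 396 several and 1193 none. The model, in limma 3.58.1 (R 4.3.3), took log2(signal + 16) from all 14 arrays, gave each group a mean and left 9 residual degrees of freedom. Empirical Bayes variances followed the mean signal, tests were two-sided, and p-values were adjusted by Benjamini-Hochberg over all probe sets kept. The fit was tested on simulated data. For a gene in a list the probe set of highest mean log2 signal was taken.

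Named genes were every probe set of the 6 inhibitors, up to 4 called genes of each list with the largest log2 difference, genes of counts of 5 or fewer, markers, and the 3 nearest genes of each inhibitor probe set whose group means span 1 or more on the log2 scale. The inhibitors and the lists were chosen with earlier results of these data known. The lists of p53, cell cycle, binding and transcription genes and of markers of keratocytes, myofibroblasts, epithelium, macrophages, lens, retina, pigment cells and vascular endothelium come from general knowledge. Vascular markers, 6 kept, had 2 that rose in each culture against adult stroma.

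Alternatives were an added constant of 1 or 64, no filter or one at 100, quantile normalization, centring each array on its median, only the 2 groups compared in the fit, the replicate number as a block, and each array left out in turn. Same-numbered arrays were compared by correlating their deviations from group means. The correlations were 0.623, 0.682 and 0.533 for numbers 1 to 3 in myofibroblast and fibroblast culture, so that same-numbered arrays deviated together there. In no other comparison were they over 0.1 for every number, although number 2 gave 0.572 in fibroblast and keratocyte culture. The labels do not say whether the numbers mark shared preparations, and the main fit does not pair arrays. Promoters and gene positions are from RefSeq tables of the build GRCm38.p6, matched by symbol.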

Additional observations from a re-analysis of the deposited data

How the results depend on the processing

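Of the counts of inhibitor probe sets called, all 56 without a left-out array and 40 of 41 with one stayed within 1.5 times the reported count. Leaving out each array gave 0 to 0 for adult against P10 stroma, 3 to 5 for keratocyte culture against adult stroma (3 without keratocyte replicate 1), 3 to 4 and 3 to 5 for fibroblast and myofibroblast culture against adult stroma, and 1 to 1, 1 to 1 and 2 to 2 for fibroblast against keratocyte, myofibroblast against fibroblast and myofibroblast against keratocyte culture. Of 775 single log2 differences under alternatives 26 changed sign, none of them called. Without a left-out array these were Cdkn1a (98067_at) in adult against P10 stroma, 0.13 after quantile normalization and 0.14 after centring; Cdkn1b (100278_at) there, 0.014 after centring; in keratocyte culture against adult stroma Cdkn2a, -0.077 and -0.063, and Cdkn2c, -0.15 and -0.12; and Cdkn1b (161010_r_at) in fibroblast against keratocyte culture, 0.12 and 0.11, and 0.0043 with an added constant of 1.

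Left-out arrays moved values across 0 as follows, with their ranges. Cdkn1a (98067_at) ran from -0.17 to 0.19 in adult against P10 stroma, -0.068 to 0.28 in fibroblast and -0.051 to 0.30 in myofibroblast culture against adult stroma, and -0.080 to 0.089 in myofibroblast against fibroblast culture. Cdkn1b ran from -0.42 to 0.091 in adult against P10 stroma (100278_at) and from -0.43 to 0.30 in fibroblast against keratocyte culture (161010_r_at). Cdkn2a ran from -0.0094 to 0.24 in keratocyte and -0.15 to 0.10 in fibroblast culture against adult stroma, and Cdkn2c from -0.11 to 0.24 in the former.

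Same-numbered arrays of myofibroblast and fibroblast culture deviated together, and with the replicate block Cdkn2b kept its call there (adjusted p = 0.000422), with no other inhibitor called in that comparison. The block changed 1 inhibitor call in all, that of Cdkn1a in fibroblast culture against adult stroma.

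Counts over all probe sets moved more. Adult against P10 stroma gave 385, 117 to 494 with an array left out and 245 with only the 2 groups in the fit. Fibroblast against keratocyte culture gave 142, 20 to 144 and 44. Myofibroblast against fibroblast culture gave 111, 61 to 151, 14, and 253 with the block. Myofibroblast against keratocyte culture gave 620, and 296 to 679 with an array left out. The cause was not tested. Quantile normalization moved higher and lower calls from 2262 and 959 to 1892 and 1647 in keratocyte culture against adult stroma. With only the 2 groups in the fit Cdkn2b fell below the filter in fibroblast against keratocyte culture and has no value.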

Other observations

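Cdkn1c encodes p57, the third CIP/KIP inhibitor, an imprinted gene of growing tissues, and was counted above among the proteins that bind or remove the inhibitors. Its signal was 532 and 562 in P10 stroma, 53.1, 93.0 and 54.7 in adult stroma, 241, 97.9 and 178 in keratocyte culture, 111, 68.7 and 121 in fibroblast culture and 19.1, 8.94 and 12.1 in myofibroblast culture. P10 stroma lay above all other arrays, and myofibroblast culture below all of them. The fall from P10 to adult stroma passed the test (limma's adjusted p = 0.000263), as did those from fibroblast (adjusted p = 0.00303) and keratocyte culture (adjusted p = 9.36e-05) to myofibroblast culture. The fall against fibroblast culture did not pass with only the 2 groups in the fit. Against adult stroma keratocyte culture was higher (limma's adjusted p = 0.00723) and myofibroblast culture lower (adjusted p = 0.00110). Adult stroma, fibroblast and myofibroblast culture are within background in the mean, so no fold is given. Cdkn1c was low on the myofibroblast arrays, where Cdkn2b was high.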
